A study of Bos taurus with 12 samples.

Results

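The superoxide dismutases, catalase, peroxiredoxins and glutathione peroxidases form the first line of enzymes that remove superoxide and hydrogen peroxide from cells. They were followed here as 10 named genes, SOD1, SOD2, SOD3, CAT, PRDX1, PRDX3, PRDX5, PRDX6, GPX1 and GPX3, chosen by name with earlier results of these data known. Of these, 8 were found by symbol among the 24616 genes of the table, each in a single row, and all 8 passed the filter on low values that left 11374 genes to test. SOD3, the secreted dismutase, and GPX1, the abundant cytosolic glutathione peroxidase, were not analysed here.

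RNA came from the right ventricle of Angus steers labelled wild type that were kept at 2170 m (7120 ft), under the chronic low oxygen of a mountain pasture, castrated as calves and slaughtered at 13 to 15 months of age. Catheter readings of pulmonary artery pressure (PAP) and clinical signs had put 3 of them in a group with pulmonary hypertension and right heart failure (PH-failure), 3 in a group with pulmonary hypertension but healthy (PH-healthy) and 6 in a group with low PAP. All 12 libraries come from different animals, all of them lived at the same altitude, and the groups were found by diagnosis, not set by treatment, so no animal at sea level is among them.

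Superoxide leaks from the respiratory chain and is made on purpose by oxidases. Dismutases turn it into hydrogen peroxide, SOD1 in the cytosol with copper and zinc and SOD2 in the mitochondrial matrix with manganese. Catalase, peroxiredoxins and glutathione peroxidases then remove the peroxide. Catalase needs no outside electron donor, most peroxiredoxins take electrons from thioredoxin, and glutathione peroxidases use glutathione. Heart muscle is dense in mitochondria, and its mitochondrial peroxiredoxins and SOD2 work close to where superoxide arises.

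Values are RPKM, read numbers scaled by exon length and by how many reads each library mapped. Libraries held 14739237 to 31090198 mapped reads, and the 8 genes had at least 782 reads each in every library. The genes of the mitochondrial genome took 17.8 to 20.3% of exon reads in PH-failure, 18.3 to 20.7% in PH-healthy and 22.5 to 29.9% in low PAP, which bears on any value scaled by mapped reads. Markers of heart muscle summed to 58893 to 96284 RPKM in PH-failure, 86703 to 95709 in PH-healthy and 87207 to 110031 in low PAP. Summed markers of atrial muscle, mostly the light chain gene MYL7, were 431 to 1844 RPKM in PH-failure, 544 to 881 RPKM in PH-healthy and 3091 to 6779 RPKM in low PAP. The rest of that list did not follow MYL7. Log2 differences from low PAP in PH-failure and PH-healthy were 0.87 and 1.32 for NPPA, and 0.48 and 0.30 for MYL4. They were 0.56 and 0.20 for NR2F2, and 0.12 and -0.02 for KCNJ3. Of these, NR2F2 in PH-failure alone was called (limma adjusted p = 0.0119). PH-failure replicate 3 stood apart from the other libraries, with the lowest sum of heart muscle markers and the highest sums of adipocyte, macrophage, neutrophil and red blood cell markers. In bulk tissue, fewer cells of a type and less RNA per cell cannot be told apart.

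Among the 8 genes, GPX3 rose and PRDX1 fell in both hypertensive groups, and the other 6 did not pass the test in either. GPX3 was 5.03-fold higher in PH-failure and 3.03-fold higher in PH-healthy than in low PAP, while PRDX1 fell by 0.42 and by 0.44 on the log2 scale. Genes were called with limma at a Benjamini-Hochberg adjusted p under 0.05 over all tested genes, and differences are of log2(RPKM + 1). In PH-failure against low PAP, 1 of 8 was thus called higher where 28.0% of all tested genes were, and 1 of 8 lower where 5.79% were. In PH-healthy against low PAP, 1 of 8 was called higher, beside 26.6% of all tested genes, and 1 of 8 lower, beside 8.15%. The median log2 difference of the 8 genes was -0.08 in PH-failure and -0.19 in PH-healthy, against 0.21 and 0.18 over all tested genes, and 6 of the 8 lay below that median in PH-failure and 7 in PH-healthy. The excess of higher calls over all genes depended on the scaling. In PH-failure against low PAP, 3190 genes were called higher and 658 lower with RPKM as deposited, 1133 and 1418 after quantile normalization, and 1530 and 1681 after median-ratio scaling, and in PH-healthy these were 3024 and 927, 1424 and 1622, and 1824 and 1861. Median-ratio scaling moved the median over all genes to 0.0066 in PH-failure and -0.00056 in PH-healthy, and that of the 8 genes to -0.33 and -0.41. Quantile normalization moved the median over all genes to -0.03 and -0.04 in PH-failure and PH-healthy, and that of the 8 genes to -0.06 and -0.15. Between PH-failure and PH-healthy, 0 of 8 were called in either direction, beside 0.0% of all genes called higher and 0.00879% called lower.

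**Figure D1:**
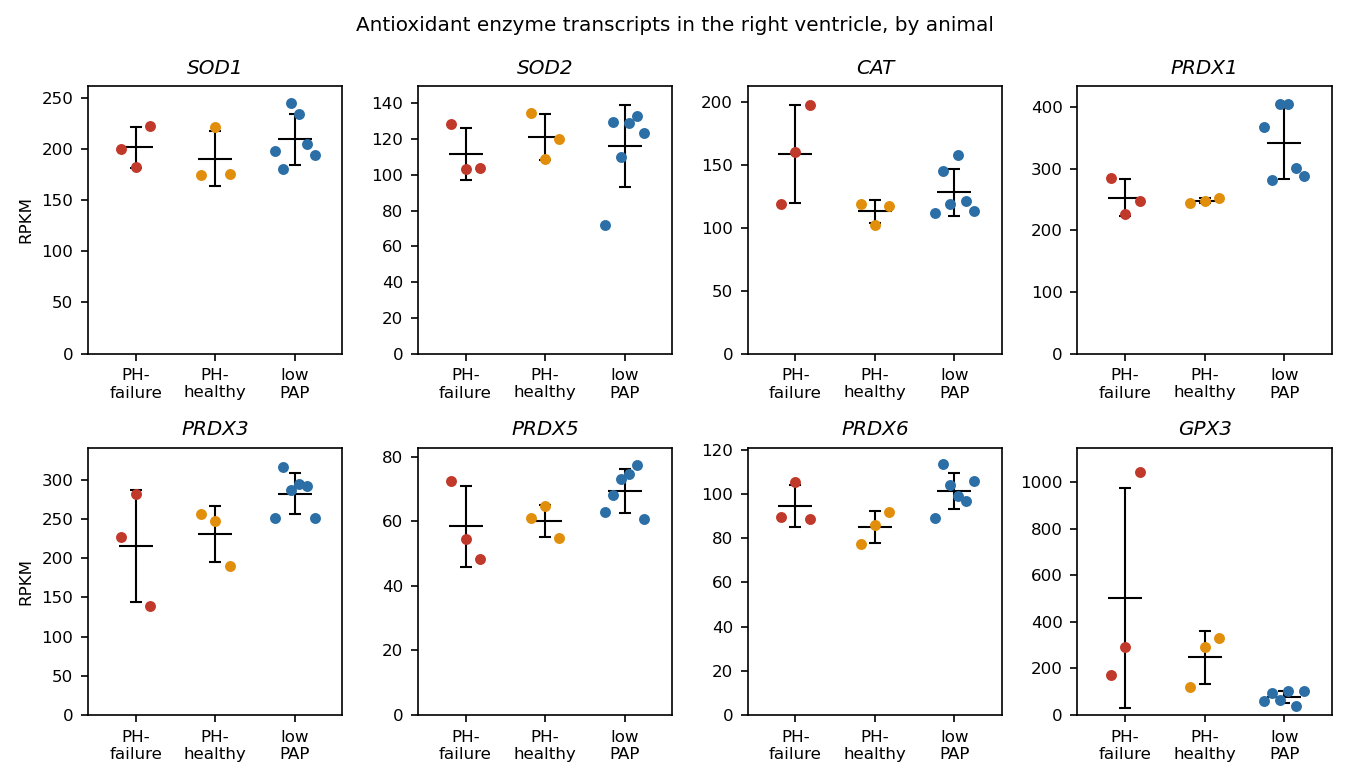
RPKM of the 8 genes in each library (points), with the group mean (wide bar) and SD (whiskers), for PH-failure (n = 3), PH-healthy (n = 3) and low PAP (n = 6). All PH-failure and PH-healthy points of GPX3 lie above the 6 low-PAP points, and the PH-failure points are spread from 172 to 1043 RPKM.

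Neither of the 2 dismutases measured passed the test in any comparison. SOD1 (ENSBTAG00000018854, chromosome 1, positions 3113948 to 3122613 as in the authors' table, whose build the labels and headers used here do not name) had 200.1, 182.7 and 222.6 RPKM in PH-failure, 175.1, 221.8 and 175.2 RPKM in PH-healthy, and 180.2, 201.6 and 245.3 RPKM as the lowest, median and highest of low PAP. The 3 groups overlapped. Its log2 difference from low PAP was -0.05 ± 0.13 (SE, adjusted p = 0.777) in PH-failure and -0.14 ± 0.13 (adjusted p = 0.426) in PH-healthy.

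SOD2 (ENSBTAG00000006523, chromosome 9, 97399158 to 97404522) had 128.5, 103.2 and 103.6 RPKM in PH-failure, 134.5, 109.0 and 119.9 RPKM in PH-healthy, and 71.8, 126.2 and 132.9 RPKM as the lowest, median and highest of low PAP. The low value belongs to low-PAP replicate 1, which also had the highest mitochondrial share of reads, and the groups overlapped. The log2 difference was -0.03 ± 0.18 (adjusted p = 0.897) in PH-failure and 0.08 ± 0.18 (adjusted p = 0.736) in PH-healthy, with 95% intervals from -0.42 to 0.35 and from -0.30 to 0.47. Differences of SOD2 anywhere within those intervals were compatible with the values of these animals.

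Catalase (CAT, ENSBTAG00000020980, chromosome 15, 65779324 to 65815261), the peroxisomal enzyme that splits hydrogen peroxide into water and oxygen, had its widest spread in PH-failure. It had 119.2, 160.1 and 197.4 RPKM in PH-failure, 119.2, 102.6 and 117.4 RPKM in PH-healthy, and 112.2, 120.2 and 158.0 RPKM as the lowest, median and highest of low PAP. PH-failure replicate 3 was the highest of all 12 libraries, and every PH-failure value was above every PH-healthy value (119.2 RPKM in both at the nearest pair). The log2 difference between PH-failure and PH-healthy was 0.46 ± 0.18 (95% interval 0.06 to 0.86), with an unadjusted p of 0.0259 and an adjusted p of 0.9995, so it was not called. Against low PAP it was 0.29 ± 0.16 (adjusted p = 0.166) in PH-failure and -0.17 ± 0.16 (adjusted p = 0.414) in PH-healthy. Without PH-failure replicate 1 the difference from low PAP was 0.48 (adjusted p = 0.0310), and without PH-failure replicate 3 it was 0.12 (adjusted p = 0.603).

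PRDX1 and PRDX3 had the highest levels of the 8 genes in low-PAP ventricles. The 4 peroxiredoxins among the 8 genes had negative differences in both hypertensive groups, in the fit reported and in all 22 alternative settings. Of these 4, PRDX1 alone passed the test in the fit reported. PRDX1 (ENSBTAG00000003642, chromosome 3, 101152891 to 101166725), the main cytosolic peroxiredoxin, had 284.8, 226.1 and 248.2 RPKM in PH-failure, 243.9, 248.0 and 252.5 RPKM in PH-healthy, and 282.1, 334.6 and 404.7 RPKM as the lowest, median and highest of low PAP. All PH-healthy values were below all low-PAP values, whereas PH-failure replicate 1 lay just above the lowest low-PAP animal. PRDX1 averaged 253 ± 29.7 RPKM in PH-failure and 248 ± 4.27 RPKM in PH-healthy (SD, n = 3 each), against 342 ± 57.5 RPKM in low PAP (SD, n = 6). The log2 difference was -0.42 ± 0.14 (adjusted p = 0.0387) in PH-failure and -0.44 ± 0.14 (adjusted p = 0.0306) in PH-healthy.

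The call of PRDX1 sat close to the threshold. In PH-failure against low PAP it was lost in 13 of 22 alternative settings, with adjusted p from 0.0201 to 0.138, among them each setting without PH-failure replicate 2 or 3, any PH-healthy replicate, or low-PAP replicate 1, 3 or 4. In PH-healthy against low PAP it was lost in 9 of 22, with adjusted p from 0.0174 to 0.10, among them each setting without any PH-healthy replicate or without low-PAP replicate 1, 3 or 4. The direction held in all 22, with log2 differences from -0.68 to -0.31 and from -0.66 to -0.28.

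PRDX3 (ENSBTAG00000008731, chromosome 26, 39672043 to 39681392), the peroxiredoxin of the mitochondrial matrix, had 227.0, 281.5 and 139.1 RPKM in PH-failure, 256.1, 247.2 and 189.6 RPKM in PH-healthy, and 250.9, 290.1 and 316.2 RPKM as the lowest, median and highest of low PAP. PH-failure replicate 3 was the lowest of all libraries. The log2 difference from low PAP was -0.44 ± 0.19 (adjusted p = 0.0825) in PH-failure and -0.30 ± 0.19 (adjusted p = 0.230) in PH-healthy, neither of which passed. The PH-failure difference did pass under median-ratio scaling, under scaling without mitochondrial genes, with the library series as a term, and without PH-failure replicate 2 (log2 -0.66, adjusted p = 0.0309). The libraries' names put them in a series 55 or a series 56, and within those the log2 difference of PRDX3 between PH-failure and low PAP was -0.99 (1 library against 3) and -0.18 (2 against 3).

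PRDX5 (ENSBTAG00000008648, chromosome 29, 43229776 to 43232885), found in mitochondria, peroxisomes and cytosol, was the least abundant of the 8 in each group. It had 72.5, 54.5 and 48.5 RPKM in PH-failure, 60.9, 64.7 and 54.7 RPKM in PH-healthy, and 60.8, 70.6 and 77.4 RPKM as the lowest, median and highest of low PAP, with log2 differences from low PAP of -0.26 ± 0.13 (adjusted p = 0.135) in PH-failure and -0.20 ± 0.13 (adjusted p = 0.240) in PH-healthy. The groups overlapped, and the lowest value was again that of PH-failure replicate 3. The PH-failure difference passed without PH-failure replicate 1 (log2 -0.42, adjusted p = 0.0229) and under median-ratio scaling (-0.51, adjusted p = 0.0278).

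PRDX6 (ENSBTAG00000004855, chromosome 16, 56389803 to 56399714), which takes its electrons from glutathione and also acts on phospholipids, had 89.5, 105.4 and 88.8 RPKM in PH-failure, 77.5, 86.0 and 91.8 RPKM in PH-healthy, and 89.3, 101.4 and 113.5 RPKM as the lowest, median and highest of low PAP. Only 1 PH-healthy animal reached into the low-PAP range. The log2 difference was -0.10 ± 0.11 (adjusted p = 0.473) in PH-failure and -0.25 ± 0.11 (adjusted p = 0.0814) in PH-healthy. Under median-ratio scaling both passed, at -0.36 (adjusted p = 0.0379) and -0.47 (adjusted p = 0.0106), and the PH-healthy difference also passed with scaling that left out mitochondrial genes (-0.34, adjusted p = 0.0227).

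GPX3 (ENSBTAG00000043553, chromosome 7, 64286947 to 64295116) encodes the secreted selenium enzyme known as plasma glutathione peroxidase. It had 171.7, 291.8 and 1042.6 RPKM in PH-failure, 118.2, 292.9 and 329.9 RPKM in PH-healthy, and 40.5, 79.1 and 103.3 RPKM as the lowest, median and highest of low PAP. Every hypertensive animal was above every low-PAP animal, and the 2 hypertensive groups overlapped. GPX3 averaged 502 ± 472 RPKM in PH-failure and 247 ± 113 RPKM in PH-healthy (SD, n = 3 each), against 77.6 ± 25.7 RPKM in low PAP (SD, n = 6). The log2 difference from low PAP was 2.33 ± 0.50 in PH-failure (adjusted p = 0.00651, 95% interval of the fold 2.39 to 10.6), which placed it 24th from the highest of the 11374 tested genes. In PH-healthy it was 1.60 ± 0.50 (adjusted p = 0.0264, 95% interval of the fold 1.44 to 6.37), the 130th from the highest.

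The size of the GPX3 difference depended on single animals. Without PH-failure replicate 3 it was 1.59 on the log2 scale, a 3.01-fold difference (adjusted p = 0.0305), and over all 22 alternatives it ranged from 1.59 to 2.89 with adjusted p from 0.00261 to 0.0305. The call in PH-healthy did not hold without PH-healthy replicate 2 (adjusted p = 0.10), without PH-healthy replicate 3 (adjusted p = 0.110), without low-PAP replicate 3 (adjusted p = 0.0510) and with an adipocyte score as a term (adjusted p = 0.0912). Within library series 56 the log2 difference from low PAP was 1.41 for PH-failure (2 libraries against 3) and 0.49 for PH-healthy (1 against 3). Within series 55 it was 3.99 for PH-failure (1 against 3) and 2.25 for PH-healthy (2 against 3).

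Cell type markers went with GPX3 in some libraries and not in others. PH-failure replicate 3, the animal with 1042.6 RPKM of GPX3, had a summed adipocyte marker level of 1693 RPKM, against 715 and 635 RPKM in the other PH-failure libraries, 488 to 758 RPKM in PH-healthy and 445 to 838 RPKM in low PAP. The list had 11 of its 14 genes in the table, of which none was at 0 in all libraries, and PLIN1, LEP and LIPE were not among them. In that library the macrophage and monocyte markers summed to 213 RPKM and the red blood cell markers to 70.2 RPKM, where no other library exceeded 139 and 9.43 RPKM. In the other hypertensive animals the adipocyte sums lay within the low-PAP range while GPX3 lay above it, but much of the sum was LPL, which heart muscle also makes, at 334 to 535 RPKM in PH-failure, 353 to 479 RPKM in PH-healthy and 242 to 528 RPKM in low PAP. The adipocyte hormone gene ADIPOQ had 49.65, 3.62 and 70.5 RPKM in PH-failure, 0.74 to 1.29 RPKM in PH-healthy and 2.28 to 51.3 RPKM in low PAP. The fatty acid carrier gene FABP4 had 106, 12.6 and 949 RPKM in PH-failure, 2.10 to 4.01 RPKM in PH-healthy and 5.48 to 173 RPKM in low PAP. Both were thus lower in every PH-healthy animal than in any low-PAP animal, though neither was called (adjusted p = 0.0516 and 0.124). In PH-failure replicate 3, FABP4 alone made up 949 of the 1693 RPKM of the adipocyte sum. The highest low-PAP values of ADIPOQ and FABP4 were those of low-PAP replicate 5, which had the lowest GPX3 of all 12 libraries (40.5 RPKM). The adipocyte score used as a term was 5.27 in low-PAP replicate 5 and 5.25 in PH-failure replicate 3. The rest of the list went both ways in PH-healthy. CIDEC had a log2 difference of -1.16, while SCD, PNPLA2, LPL, PLIN4, FASN and CIDEA had 0.08 to 0.65, none of them called. DGAT2 was called lower in PH-failure (-1.25, adjusted p = 0.00764) and in PH-healthy (-1.22, adjusted p = 0.00699). The fibroblast markers summed to 1107 to 1717 RPKM in PH-failure, 777 to 1435 RPKM in PH-healthy and 694 to 982 RPKM in low PAP, and 9 and 6 of the 12 were called higher in PH-failure and PH-healthy, beside 28.0% and 26.6% of all tested genes. Beyond the adipocyte term and the fits without PH-failure replicate 3, the part of the cell type markers in the GPX3 result was not tested.

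**Figure D2:**
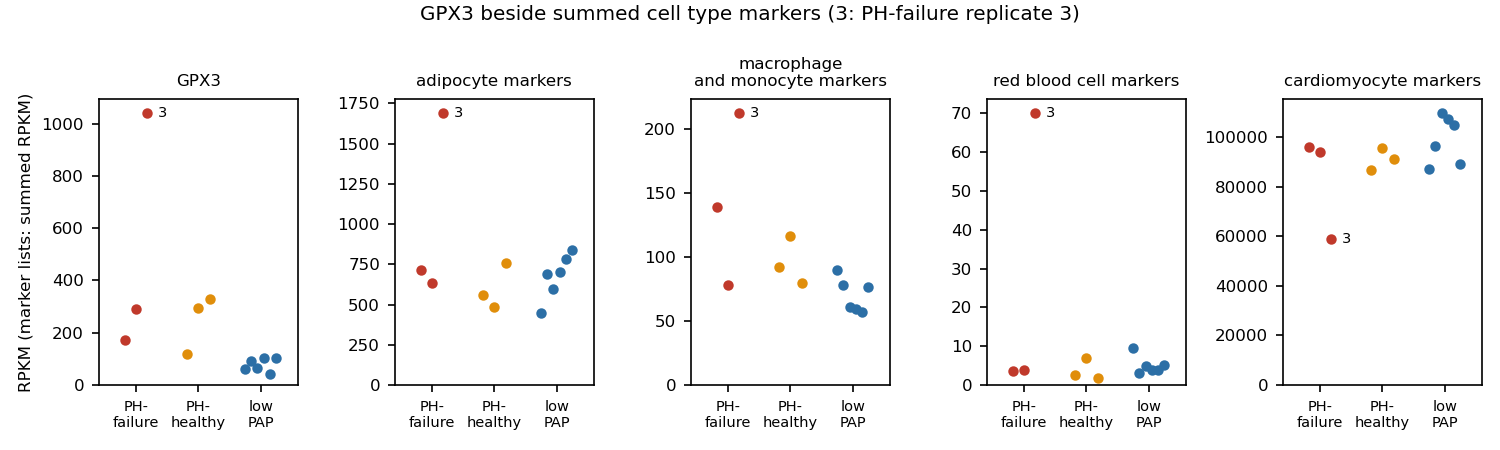
GPX3 (RPKM) and the summed RPKM of 4 marker lists in each library of PH-failure, PH-healthy and low PAP, each panel on its own axis from 0. PH-failure replicate 3, marked 3, is highest for GPX3, adipocyte, macrophage and red blood cell markers and lowest for heart muscle markers.

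GPX3 also differed from the other 7 genes in how much animals of the same group varied. Its coefficient of variation was 94.0% in PH-failure, 45.8% in PH-healthy and 33.1% in low PAP, whereas the other genes ranged from 9.92 to 33.3%, from 1.72 to 15.6% and from 8.17 to 19.95% in those groups. The order of the mean levels changed with it. In PH-failure the order was GPX3, PRDX1, PRDX3, SOD1, CAT, SOD2, PRDX6 and PRDX5, and in PH-healthy PRDX1, GPX3, PRDX3, SOD1, SOD2, CAT, PRDX6 and PRDX5. In low PAP it was PRDX1, PRDX3, SOD1, CAT, SOD2, PRDX6, GPX3 and PRDX5. RPKM is a level per length of exon, so genes can be set side by side, but most neighbours in these orders overlapped between animals. The neighbours that did not overlap were PRDX6 and PRDX5 in PH-failure, SOD1 and SOD2, CAT and PRDX6, and PRDX6 and PRDX5 in PH-healthy, and PRDX3 and SOD1, and SOD1 and CAT, in low PAP.

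**Figure D3:**
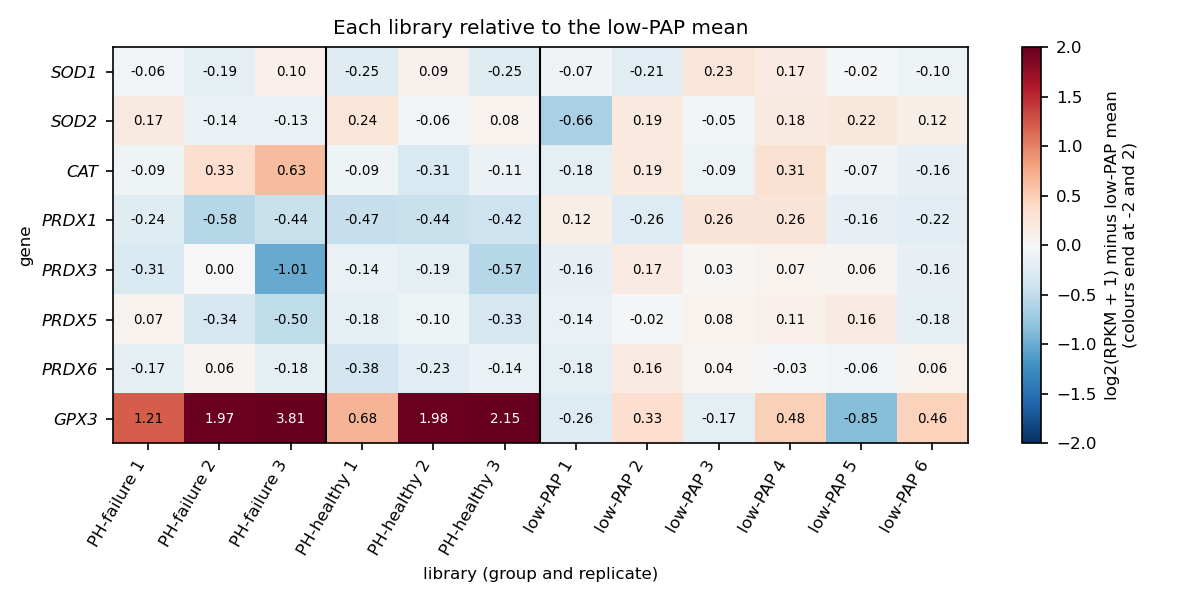
log2(RPKM + 1) of each gene (rows) in each library (columns) minus the low-PAP mean, with the value in each cell. The GPX3 row is above 0 in all 6 hypertensive libraries (0.68 to 3.81), and the PRDX1 row is below 0 in the same 6 (-0.58 to -0.24).

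No member passed the test between the 2 hypertensive groups. The log2 difference between PH-failure and PH-healthy was 0.73 for GPX3 (95% interval -0.51 to 1.97), 0.02 for PRDX1 (-0.33 to 0.38), -0.14 for PRDX3 and 0.09 for SOD1. All 8 had an adjusted p of 0.9995, and 1, CAT, an unadjusted p under 0.05. Without PH-failure replicate 3 the GPX3 difference was -0.0091. Over all tested genes a single entry, BPHL (ENSBTAG00000045888), was called in this comparison with limma, lower in PH-failure. It is not the entry of highest mean RPKM with that symbol, and no other BPHL entry was called. With limma 308 genes had an unadjusted p under 0.05, and limma-voom on the recovered reads called 0.

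**Figure D4:**
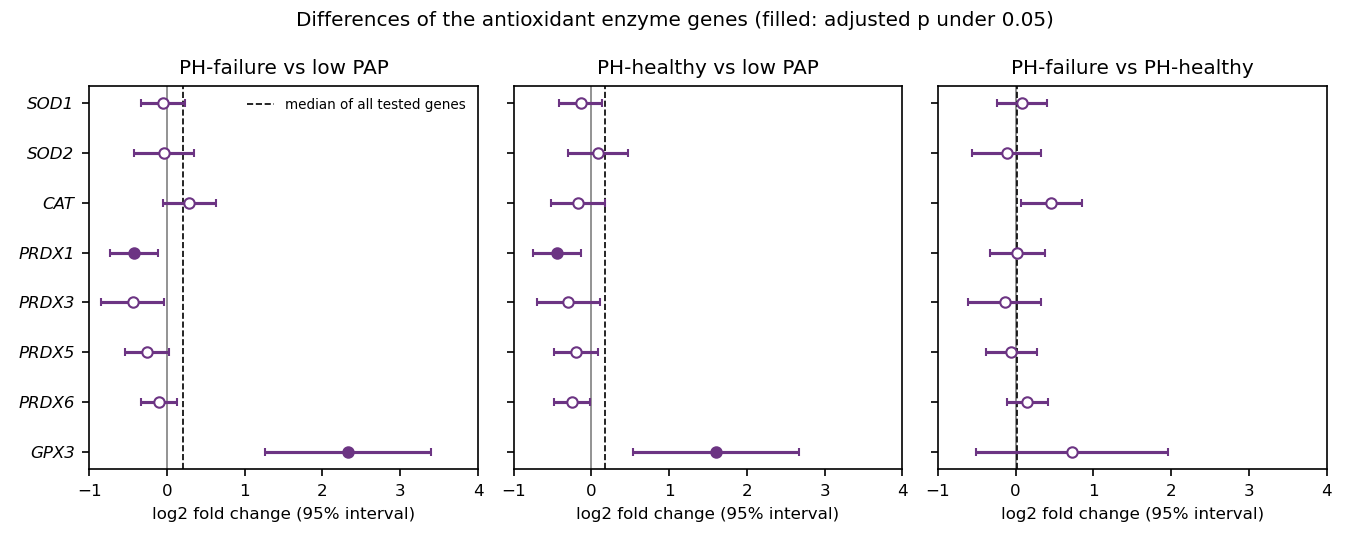
log2 fold change of the 8 genes with its 95% interval in the 3 comparisons, filled where the adjusted p was under 0.05, with the median of all tested genes as a dashed line. GPX3 and PRDX1 are filled in both comparisons with low PAP, and no gene is filled between PH-failure and PH-healthy.

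The authors' deposited table sets all high-PAP against all low-PAP animals and gives its own fold changes, negative where high PAP is lower. Its group means are not those of the 6 libraries per pressure class used here, so its values may rest on libraries not analysed here. There GPX3 has a fold of 4.21 with a false discovery rate of 2.97e-07, and PRDX3 a fold of -1.25 with a rate of 0.0146. PRDX1 has a fold of -1.26 and PRDX5 of -1.14 in the authors' deposited table, with rates of 0.0861 and 0.0995.

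Wider redox genes were described by 7 lists, chosen with earlier results of these data known. Outside the 8 genes, 115 of their genes were tested. In PH-failure against low PAP, 21 of the 115 (18.3%) were called higher and 13 (11.3%) lower, beside 28.0% and 5.79% of all tested genes, with a median log2 difference of 0.12 beside 0.21 over all tested genes. In PH-healthy against low PAP, 17 (14.8%) were called higher and 11 (9.57%) lower, beside 26.6% and 8.15% of all tested genes, with a median of 0.03 beside 0.18. Between PH-failure and PH-healthy, 0 were called with limma or with limma-voom, and 5 had an unadjusted p under 0.05 with limma. These counts depended on single animals, as did those over all tested genes. Without PH-failure replicate 3, 8 were called higher and 8 lower in PH-failure, beside 11.28% and 2.26% of all tested genes. The 13 lower calls became 7 without PH-failure replicate 2 or low-PAP replicate 1 or 3, and 8 without low-PAP replicate 4 or 5. The lower share of all tested genes was then 2.893% without PH-failure replicate 2, and 3.728 to 4.818% without those low-PAP replicates. In PH-healthy, 8 were called higher and 5 lower without PH-healthy replicate 1, beside 13.26% and 3.359% of all tested genes. Without PH-healthy replicate 2 these were 10 and 9, beside 16.02% and 4.932%. Without PH-healthy replicate 3 they were 10 and 5, beside 16.16% and 3.605%. Without low-PAP replicate 1 or 5, 11 were called higher in PH-healthy, beside 21.15% and 21.29% of all tested genes. After median-ratio scaling the counts were 11 higher and 18 lower in PH-failure, beside 13.45% and 14.78% of all tested genes. In PH-healthy they were 10 higher and 23 lower, beside 16.04% and 16.36%. None of the named calls changed sign in any of the 22 alternatives.

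The list of the thioredoxin system, which feeds electrons to the peroxiredoxins, also held glutaredoxins, sestrins, methionine sulfoxide reductases and further peroxide enzymes. Of its 21 tested genes, 5 were higher (23.8%, beside 28.0% of all tested genes) and 4 lower (19.0%, beside 5.79%) in PH-failure. In PH-healthy, 5 were higher (23.8%, beside 26.6%) and 3 lower (14.3%, beside 8.15%). Among the thioredoxins and thioredoxin reductases of the list, TXNRD1 alone was called. TXNRD1, the cytosolic thioredoxin reductase that recharges thioredoxin with NADPH, averaged 29.5 ± 0.67 RPKM in PH-failure and 30.5 ± 1.10 RPKM in PH-healthy, against 20.2 ± 2.62 RPKM in low PAP, log2 differences of 0.53 (adjusted p = 0.00565) and 0.58 (adjusted p = 0.00315). SESN3, of the sestrin family that restrains growth signalling, averaged 4.52 ± 1.51 RPKM in PH-failure and 4.70 ± 0.50 RPKM in PH-healthy, against 1.71 ± 0.41 RPKM in low PAP. Its log2 differences were 1.01 (adjusted p = 0.00243) and 1.08 (adjusted p = 0.00130). The calls of both genes held in all 22 alternatives in both groups. SRXN1, the sulfiredoxin that repairs overoxidised peroxiredoxins and was picked after its values were seen, had 9.31, 11.9 and 24.4 RPKM in PH-failure and 10.5 to 13.2 RPKM in PH-healthy, against 4.64 to 9.42 RPKM in low PAP. Its call in PH-failure (log2 1.06, adjusted p = 0.0116) did not hold in the absence of PH-failure replicate 3 (adjusted p = 0.0581), and that in PH-healthy (0.81, adjusted p = 0.0298) was lost in 9 of 22 alternatives.

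Other thiol and repair genes were called in both directions. The methionine sulfoxide reductase MSRA averaged 81.7 ± 16.3 RPKM in PH-failure and 90.1 ± 7.89 RPKM in PH-healthy, against 121 ± 12.5 RPKM in low PAP (adjusted p = 0.00893 and 0.0281), while its relative MSRB3 rose to 71.4 ± 12.9 and 71.6 ± 4.55 RPKM in PH-failure and PH-healthy, against 45.0 ± 7.83 RPKM in low PAP (adjusted p = 0.00979 and 0.00752). In PH-failure MSRA was not called under the replicate block, nor MSRB3 under median-ratio scaling or in the absence of PH-failure replicate 3, and in PH-healthy MSRA was lost in 6 of 22, among them each setting without PH-healthy replicate 1 or 3 or low-PAP replicate 3 or 4. The monothiol glutaredoxin GLRX3, which handles iron-sulphur clusters, averaged 82.2 ± 4.46 RPKM in PH-failure and 80.5 ± 2.16 RPKM in PH-healthy, against 115 ± 13.5 RPKM in low PAP (adjusted p = 0.00920 and 0.00611), and under the replicate block its call was lost in PH-failure. GLRX5, its mitochondrial counterpart, was called lower in PH-failure (log2 -0.50, adjusted p = 0.0358), a call lost in 11 of 22 alternatives. The glutaredoxin GLRX went the other way and was called higher in PH-failure (log2 0.88, adjusted p = 0.0208) and PH-healthy (0.84, adjusted p = 0.0235). It is outside the named genes, was picked after its values were seen, and its alternatives are not given here. PRDX4, the peroxiredoxin of the endoplasmic reticulum, was called lower in PH-healthy (log2 -0.66, adjusted p = 0.0372), a call lost in 10 of 22. GSR, the reductase that recycles glutathione and was picked after its values were seen, was called lower in PH-failure (log2 -0.42, adjusted p = 0.0439), a call lost in 13 of 22.

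Of 17 genes of glutathione synthesis and transfer, 1 was called higher (5.88%, beside 28.0% of all tested genes) and 1 lower (5.88%, beside 5.79%) in PH-failure, and 0 higher (beside 26.6%) and 1 lower (5.88%, beside 8.15%) in PH-healthy. GSS, which completes glutathione, was called higher in PH-failure by 0.38 on the log2 scale (adjusted p = 0.0162), a call that was lost under quantile normalization, median-ratio scaling and the replicate block. GSTK1, a mitochondrial and peroxisomal transferase, was called lower in PH-failure by a log2 difference of -0.53 (adjusted p = 0.0402), lost in 13 of 22 (adjusted p up to 0.216). GGT5, which starts the breakdown of extracellular glutathione, was called lower in PH-healthy (-0.65, adjusted p = 0.0130), a call that did not hold with PH-healthy replicate 1 left out, with the adipocyte score or under the replicate block.

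Within the list of NFE2L2, the transcription factor of the antioxidant response, the called genes were all of heme degradation, 2 higher and 2 lower of 18 (11.1% each way) in each hypertensive group, beside 28.0% higher and 5.79% lower over all tested genes in PH-failure, and 26.6% and 8.15% in PH-healthy. HMOX1, the stress-inducible heme oxygenase, had 5.48, 3.80 and 17.5 RPKM in PH-failure, 7.64, 5.61 and 5.43 RPKM in PH-healthy, and 8.26, 24.6 and 32.5 RPKM as the lowest, median and highest of low PAP. Its log2 difference was -1.32 (adjusted p = 0.0365) in PH-failure, lost in 10 of 22 alternatives (among them those without PH-failure replicate 1 or 2 or low-PAP replicate 1, 3, 4 or 6, adjusted p up to 0.163), and -1.54 (adjusted p = 0.0195) in PH-healthy, lost in 3 of 22 (without PH-healthy replicate 2 or 3, and with the adipocyte score). HMOX2, the constitutive form, rose to 43.4 ± 3.38 RPKM in PH-failure and 44.2 ± 1.71 RPKM in PH-healthy, against 29.4 ± 4.01 RPKM in low PAP (adjusted p = 0.00647 and 0.00419). The biliverdin reductase BLVRA rose, averaging 4.07 ± 0.38 and 4.76 ± 1.55 RPKM in PH-failure and PH-healthy, against 2.02 ± 0.29 RPKM in low PAP (adjusted p = 0.00481 and 0.00165), and its call in PH-failure was lost under quantile normalization and the replicate block (adjusted p up to 0.0881). BLVRB fell, averaging 31.4 ± 5.33 and 27.5 ± 3.68 RPKM in PH-failure and PH-healthy, against 52.3 ± 10.2 RPKM in low PAP (adjusted p = 0.0106 and 0.00323).

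Among sources of superoxide and peroxide, 5 of 15 were higher (33.3%, beside 28.0% of all tested genes) and 2 lower (13.3%, beside 5.79%) in PH-failure, and 3 higher (20%, beside 26.6%) and 2 lower (13.3%, beside 8.15%) in PH-healthy. MAOB, the outer mitochondrial membrane monoamine oxidase that makes hydrogen peroxide, had 6.37, 1.08 and 1.01 RPKM in PH-failure, 1.55, 0.69 and 0.62 RPKM in PH-healthy, and 11.4, 20.1 and 33.8 RPKM as the lowest, median and highest of low PAP, with log2 differences of -2.69 (adjusted p = 0.00186) and -3.41 (adjusted p = 0.000384). Neither hypertensive group overlapped low PAP, and both calls held in all 22 alternatives. CYBB, the catalytic subunit of the phagocyte NADPH oxidase, averaged 4.58 ± 0.74 RPKM in PH-failure and 4.40 ± 2.07 RPKM in PH-healthy, against 1.90 ± 0.32 RPKM in low PAP (adjusted p = 0.00506 and 0.00683), and both calls were lost under the replicate block. Of the 12 macrophage and monocyte markers, 9 were called higher in PH-failure, beside 28.0% of all tested genes. In PH-healthy 3 of 12 were, near the 26.6% of all tested genes. The part of these markers in the CYBB result was not tested. ROMO1, a small mitochondrial membrane protein, was called lower in both, with log2 differences of -0.48 (adjusted p = 0.0443) and -0.54 (adjusted p = 0.0285), calls lost in 13 and 8 of 22. SMOX, the spermine oxidase, was called higher in both, with log2 differences of 0.69 (adjusted p = 0.0173) and 0.54 (adjusted p = 0.0413), calls lost in 4 and 13 of 22.

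NADPH, the electron source for both the thioredoxin and glutathione systems, is supplied in part by the pentose phosphate pathway, and 4 of 18 genes of supply were higher (22.2%, beside 28.0% of all tested genes) and 1 lower (5.56%, beside 5.79%) in PH-failure, with 3 higher (16.7%, beside 26.6%) and 0 lower (beside 8.15%) in PH-healthy. MTHFD2, a mitochondrial folate enzyme, was called higher in PH-failure (0.70, adjusted p = 0.0100), which did not hold without PH-failure replicate 3, with quantile normalization or under the replicate block, and ME1, the cytosolic malic enzyme, was called lower (-0.40, adjusted p = 0.0323), lost in 9 of 22. RPE, a pentose phosphate epimerase, was called higher in both groups (0.45 and 0.58), calls lost in 10 and 4 of 22. ME3, a mitochondrial malic enzyme, was called higher in PH-healthy (0.43, adjusted p = 0.0333), lost in 9 of 22.

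Selenium incorporation matters to GPX3, since the enzyme carries selenocysteine, and 3 of 16 genes of selenoprotein synthesis and other selenoproteins were higher (18.8%, beside 28.0% of all tested genes) and 2 lower (12.5%, beside 5.79%) in PH-failure, with 2 higher (12.5%, beside 26.6%) and 2 lower (12.5%, beside 8.15%) in PH-healthy. SEPW1, selenoprotein W, is abundant in muscle and had 499.7, 355.9 and 253.6 RPKM in PH-failure, 354.1, 435.4 and 365.8 RPKM in PH-healthy, and 668.9, 801 and 1054 RPKM as the lowest, median and highest of low PAP. All hypertensive values were below all low-PAP values, with log2 differences of -1.20 (adjusted p = 0.00204) and -1.10 (adjusted p = 0.00246), and both calls held in all 22 alternatives. SELK, of the endoplasmic reticulum, was also called lower in both, by -0.50 in each on the log2 scale (adjusted p = 0.0189 and 0.0174), calls lost in 2 and 4 of 22. SECISBP2L, a relative of the factor that reads the selenocysteine element, and SEPN1, selenoprotein N, were called higher in both, calls lost in 5 and 10 of 22 for SECISBP2L and in 14 and 13 for SEPN1. SEPHS1, a selenophosphate synthetase relative, was called higher in PH-failure (0.48, adjusted p = 0.0230), lost in 6 of 22.

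Of the copper, manganese and matrix partners of the dismutases, ATP7A, the copper pump that loads secreted copper enzymes, rose to 5.54 ± 3.15 RPKM in PH-failure and 5.09 ± 0.60 RPKM in PH-healthy, against 1.64 ± 0.55 RPKM in low PAP (adjusted p = 0.00779 and 0.00592), calls that held in all 22 alternatives. COX17, the copper carrier to cytochrome oxidase, fell to 346 ± 20.3 RPKM in PH-failure and 344 ± 44.0 RPKM in PH-healthy, against 505 ± 84.6 RPKM in low PAP (adjusted p = 0.0207 and 0.0174), calls lost in 3 of 22 alternatives in PH-failure (quantile normalization, the replicate block and without PH-failure replicate 3) and 4 of 22 in PH-healthy (quantile normalization, the adipocyte score and without PH-healthy replicate 1 or 3). SLC39A14, a zinc and manganese importer, was called higher in PH-healthy (log2 0.58, adjusted p = 0.0190), a call lost with any PH-healthy replicate left out, with quantile normalization and with the adipocyte score. In all, 1 of 11 was higher (9.09%, beside 28.0% of all tested genes) and 1 lower (9.09%, beside 5.79%) in PH-failure, and 2 higher (18.2%, beside 26.6%) and 1 lower (9.09%, beside 8.15%) in PH-healthy.

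**Figure D5:**
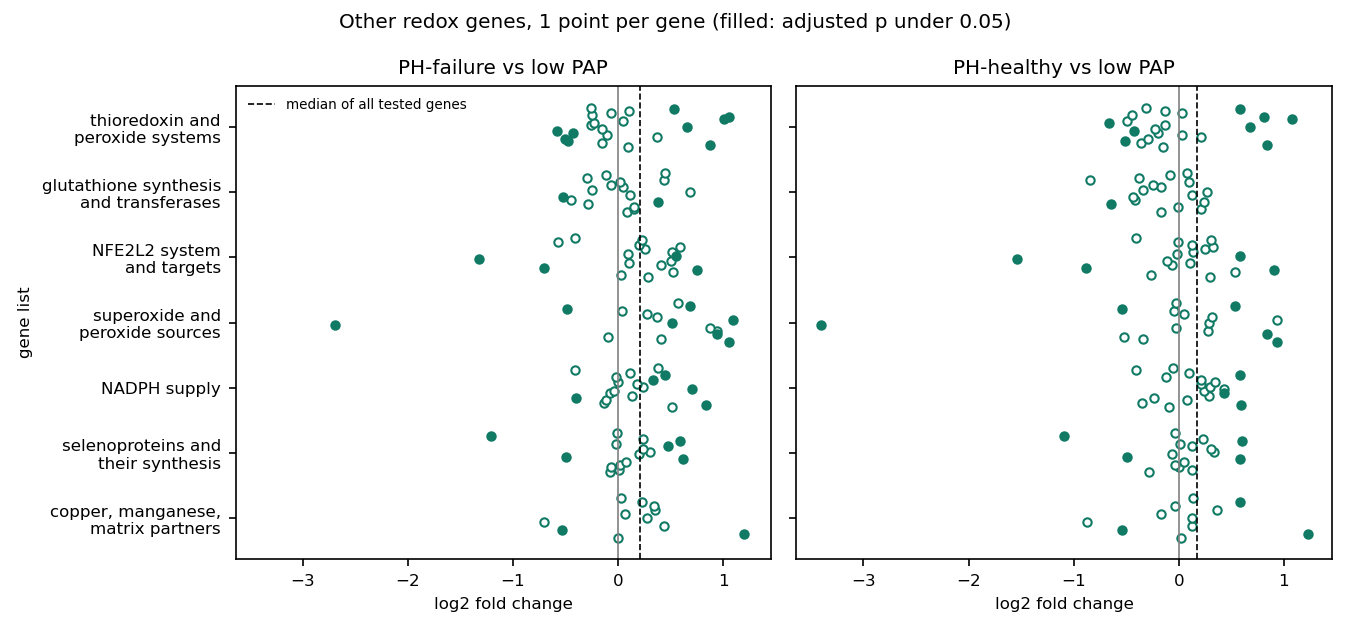
log2 fold change of each tested gene of the 7 redox lists in PH-failure (left) and PH-healthy (right) against low PAP, 1 point per gene, filled where the adjusted p was under 0.05, with the median of all tested genes as a dashed line. Filled points lie on both sides of 0 in most lists, and MAOB is the point farthest to the left in both panels.

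Genes with a pattern like that of 3 of the members over the 12 libraries were listed by the mean absolute difference of their standardized log2 values. For GPX3 they were FXR1 (0.236), SMAD7 (0.246) and CDK8 (0.250). For PRDX1 they were NME5 (0.272), ESD (0.299) and ANAPC16 (0.301). For PRDX3 they were C9H6ORF203 (0.258), PPIF (0.326) and PPIL1 (0.329). The measure is a description and was not tested.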

How the data were processed

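Right ventricle RNA of 12 steers was extracted with Trizol and sequenced on Illumina libraries, per the labels' protocols. The authors deposited RPKM per gene and library, per the file headers, with gene positions, their mean RPKM at low and high PAP, a fold change, a p-value and a false discovery rate. The aligner, the counting, its use of strand, its treatment of reads shared by related genes, and the build are not named in the labels or headers. The authors' means are not those of the 6 libraries per pressure class used here. Of the 24616 genes, 19987 have a symbol. Reads were recovered from the RPKM steps (all 11374 tested genes whole within 0.05 reads, median 370 per gene and library); exon reads made up 85.6 to 88.2% of mapped reads. No 2 libraries of the same group agreed within sampling noise.

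Genes that reached 1 RPKM in 3 or more libraries were fitted as log2(RPKM + 1) with limma 3.58.1 in R 4.3.3 (statmod 1.5.0), robust and with a variance trend, in 1 model of 3 groups, and called at a Benjamini-Hochberg adjusted p under 0.05. The fit was tested on simulated data. Tables used pandas 2.3.3 and numpy 2.4.6 under Python 3.11.15, and plots matplotlib 3.10.9. Depth limits counting error only, and p-values measure the spread between these animals. Alternatives were another pseudocount, no filter, quantile, median-ratio and mitochondria-free scaling, library series or an adipocyte score as a term, the 2 groups alone, limma-voom on recovered reads, the replicate block and each library left out. Members and gene lists were chosen with earlier results of these data known. Named genes are the members, up to 3 called genes of smallest p per list, comparison and direction, and the 3 genes most alike in pattern to each of the 3 members of largest change; SRXN1 and GSR were added after their values were seen. Some genes that this rule picks are not reported here.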

Additional observations from a re-analysis of the deposited data

Results flagged for a closer look

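SEPN1, selenoprotein N, had 16.2 RPKM in low-PAP replicate 6, far above the other low-PAP libraries (6.75 to 9.02 RPKM), by a gap that is large for the range of the group. The gap was 0.761 of the range, against a critical value of 0.625 that chance passes in about 1 in 20 groups. All members and named genes were checked in this way, so chance alone can give such a flag. In the absence of that library the log2 difference of SEPN1 from low PAP was 0.75 in PH-failure (adjusted p = 0.00101) and 0.76 in PH-healthy (adjusted p = 0.000729), against 0.59 and 0.60 with it.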

How the results depend on the processing

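In PH-failure against low PAP the count of higher members was 1 in every setting that kept all libraries and 1 to 2 with a library left out. The count of lower members, 1 as reported, was 0 with no filter on low values, quantile normalization, the adipocyte score, the 2 groups alone or the replicate block, 2 with scaling without mitochondrial genes or the library series, 4 with median-ratio scaling, and 0 to 2 with a library left out. In PH-healthy against low PAP the count of lower members was 0 with quantile normalization, the adipocyte score or the replicate block, 2 with median-ratio scaling or scaling without mitochondrial genes, and 0 to 1 with a library left out, and the count of higher members was 0 with the adipocyte score and 0 to 1 with a library left out. The cause was not tested.

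Signs turned for 6 members, in differences that were not called. For SOD1 it became 0.0020 in PH-failure against low PAP with quantile normalization and -0.0057 between the hypertensive groups with the adipocyte score. For SOD2 it became 0.14 in PH-failure against low PAP under the replicate block, and -0.14 with median-ratio scaling and -0.0057 with scaling without mitochondrial genes in PH-healthy. Between PH-failure and PH-healthy it became -0.026 for PRDX1 with quantile normalization, -0.014 with median-ratio scaling and -0.0054 with the adipocyte score, and 0.11 for PRDX3 with the adipocyte score. With a library left out, the ranges were -0.12 to 0.019 for SOD1 and -0.16 to 0.020 for SOD2 in PH-failure against low PAP, -0.047 to 0.16 for SOD2 in PH-healthy against low PAP, and, between the hypertensive groups, -0.067 to 0.099 for PRDX1, -0.36 to 0.14 for PRDX3, -0.22 to 0.066 for PRDX5 and -0.0091 to 1.29 for GPX3.

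Over all tested genes, 2219 were called higher and 1032 lower in PH-failure and 2346 and 1312 in PH-healthy with scaling without mitochondrial genes, and 1442 and 281 in PH-healthy with the adipocyte score. Under the replicate block these were 1225 and 158 in PH-failure and 1511 and 318 in PH-healthy. Same-numbered animals did not deviate together (correlations of 0.20, 0.21 and -0.10 between PH-failure and low PAP, and -0.13, -0.34 and -0.11 between PH-healthy and low PAP), so the numbers were not taken as pairs. Outside the members, 9 redox genes were called higher and 3 lower in PH-failure and 9 and 6 in PH-healthy under the replicate block. The planned quasi-likelihood count test was not run, since the deposited unit is RPKM; limma-voom on the recovered reads gave the reported member counts. With 3 animals per hypertensive group, the number of animals limits the precision.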
